A study of Mus musculus with 6 samples.

Results

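Growth hormone (GH) and the insulin-like growth factors (IGFs) form 1 endocrine and local axis, and 10 of its genes were examined in subcutaneous inguinal white adipose tissue (iWAT) of mice that overexpress the homeobox transcription factor Hlx in fat. The 10 genes were 2 receptors (*Ghr* and *Igf1r*), 2 ligands (*Igf1* and *Igf2*) and 6 binding proteins (*Igfbp2* to *Igfbp7*), found by symbol among the 19445 gene loci of the deposited table. Each symbol matched 1 locus, and all 10 passed the expression filter, a mean of over 1 FPKM in at least 1 genotype, which 11692 loci passed. The unit, FPKM, scales sequenced fragments by both transcript length and the mapped reads of the library, so levels can be compared between genes.

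RNA-Seq was made from iWAT of 3 *Hlx* transgenic (TG) mice and 3 wild-type (WT) littermates, with 1 library per mouse. All 6 mice were 12 weeks old and labelled male, and no treatment was given. The transgene placed *Hlx* cDNA under the *Fabp4* (aP2) promoter, which is active in fat cells but is not strictly confined to them, and founders from C57BL/6 and SJL hybrids were backcrossed to C57BL/6. The comparison between TG and WT asks how the iWAT transcriptome changes when *Hlx* is raised in adipocytes.

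*Hlx* was 96.2 ± 15.3 FPKM (SD, n = 3) in TG and 7.45 ± 0.637 FPKM (n = 3) in WT, so *Hlx* RNA was high where the labels put the transgene. *Ucp1*, the uncoupling protein of thermogenic fat, was 591 ± 47.2 FPKM in TG and 36.9 ± 20.2 FPKM in WT. *Xist*, the RNA that coats the inactive X chromosome, was between 20.2 and 33.6 FPKM in all 6 mice, and the 28 Y-linked loci had 0 FPKM throughout, which goes against the labelled sex in both genotypes alike. The FPKM values of a mouse summed to between 466059 and 542096. The depth is unknown, and relative depth could not be read from steps between low values, since under 16% of them lay on a common step with WT replicate 3 in each of the other mice.

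As background, GH from the pituitary binds the GH receptor, which signals through the kinase JAK2 and the transcription factor STAT5, and *Igf1* is a classical target of this signal in liver and in adipose tissue. IGF1 and IGF2 act through the IGF1 receptor, a tyrosine kinase related to the insulin receptor, which engages IRS proteins, PI3-kinase and AKT. Most IGF in body fluids is held by IGF binding proteins, which prolong its life and limit or direct its access to the receptor, and proteases that cleave them release the ligand. In fat, GH is known for promoting lipolysis and IGF1 for promoting the growth and differentiation of preadipocytes.

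Of the 10 genes, 4 were lower in TG than in WT, namely *Ghr*, *Igf1*, *Igfbp4* and *Igfbp7*, and 0 were higher, by limma's moderated test of log2(FPKM + 1), where a call is an adjusted p under 0.05 after Benjamini-Hochberg correction over all 11692 loci tested. Among all loci tested, 7.03% were called lower in TG, 11.6% higher and 18.6% in either direction, at the same adjusted threshold. At an unadjusted p under 0.05 the counts of the 10 genes were also 4 lower and 0 higher. The share of all loci at that unadjusted threshold was not taken, so these counts have no background beside them. The median log2 fold change of the 10 genes was -0.30, against -0.01 over all loci tested. The other 6 genes, *Igf1r*, *Igf2*, *Igfbp2*, *Igfbp3*, *Igfbp5* and *Igfbp6*, did not pass the threshold. Because 1 FPKM was added before taking logs, a log2 fold change here is smaller than the true one where FPKM is low.

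The sequences before a RefSeq transcription start of 3 of the 4 lower genes are shown to place them in the genome and to compare their promoters. The windows shown hold no annotated exon. Each is the 250 bases before the RefSeq transcription start on build GRCm38.p6, read 5′ to 3′ on the gene's strand, and capitals mark the letters TATAAA of the TATA box on either strand. They also mark the letters CCAAT of the box bound by NF-Y. The last motif in capitals is GGGCGG, the GC box, and the motifs do not overlap here. The *Ghr* window is chr15:3581843-3582092 on the minus strand, that of *Igfbp4* chr11:99040994-99041243 on the plus strand, and that of *Igfbp7* chr5:77408046-77408295 on the minus strand. The *Ghr* window lies inside the annotated gene (chr15:3317760-3583492), before an internal start. The deposited locus of *Igfbp4* (from chr11:99040569) covers its window, and that of *Igfbp7* (to chr5:77408156) covers part of its window.
Ghr: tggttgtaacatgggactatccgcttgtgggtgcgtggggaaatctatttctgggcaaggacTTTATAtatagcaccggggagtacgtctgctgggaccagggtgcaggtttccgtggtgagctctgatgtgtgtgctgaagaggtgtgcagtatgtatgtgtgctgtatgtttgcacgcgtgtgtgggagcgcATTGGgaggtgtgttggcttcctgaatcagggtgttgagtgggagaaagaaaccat
Igfbp4: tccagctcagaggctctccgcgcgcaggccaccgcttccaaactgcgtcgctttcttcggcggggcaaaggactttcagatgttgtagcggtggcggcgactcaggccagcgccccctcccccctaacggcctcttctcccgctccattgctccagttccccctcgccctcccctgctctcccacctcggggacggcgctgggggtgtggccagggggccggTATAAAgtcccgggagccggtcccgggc
Igfbp7: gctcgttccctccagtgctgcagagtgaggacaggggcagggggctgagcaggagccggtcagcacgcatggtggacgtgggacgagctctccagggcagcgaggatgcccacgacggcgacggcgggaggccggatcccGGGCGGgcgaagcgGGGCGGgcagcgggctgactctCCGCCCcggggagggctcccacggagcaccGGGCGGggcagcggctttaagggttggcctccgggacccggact
The *Igfbp4* window had its TATAAA 28 bases before the start and a GC content of 69.2%. The *Igfbp7* window had no TATAAA but 4 GC boxes, with a GC content of 74.0%. The *Ghr* window had 1 CCAAT and 1 TATAAA, the latter 188 bases before the start, and a GC content of 52.0%, near the median of 52.4% over all windows. None of these motifs was in all 3 windows. *Ghr* has a further RefSeq start whose window overlaps an exon and so is not shown, and the *Igf1* window also lies in annotated exons.

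All 10 genes matched the RefSeq promoter table, with 15 start sites in all, since *Ghr*, *Igf2* and *Igfbp2* have several. Over all 32851 windows of this length, TATAAA was found in 12.4%, CCAAT in 33.8% and GGGCGG in 32.7%, against 3, 5 and 6 of the 15 windows here. All motifs were searched on both strands. The STAT5 palindrome TTCNNNGAA was in 0 of the 15 windows and in 7.02% of all windows. The homeobox core TAAT was in 2 of the 15, both before RefSeq starts of *Igf2*, and in 54.9% of all windows. The GC content of the 15 windows was between 47.6% and 77.6%, against a median of 52.4% over all windows. The shares of windows with a motif were not adjusted for this. These matches describe letters in a window and say nothing of binding.

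*Ghr* (chr15:3317760-3583492, minus strand, ENSMUSG00000055737.12), the receptor through which GH acts on adipocytes, was among the 3 most abundant of the 10 genes in WT iWAT. It was 596, 464 and 444 FPKM in WT replicates 1 to 3 and 198, 285 and 244 FPKM in TG replicates 1 to 3. All TG mice lay below all WT mice, and WT replicate 1 was the highest of the 6. The means were 242 ± 43.4 FPKM in TG and 501 ± 82.2 FPKM in WT (SD, n = 3 each), 51.7% lower in TG. The log2 fold change was -1.05 (SE 0.17, 95% interval -1.46 to -0.64; limma adjusted p = 0.00874). With 3 mice against 3, the smallest two-sided p of an exact permutation test over the 20 arrangements is 0.1, which *Ghr* reached. The call was kept in all 15 alternative settings, with limma adjusted p-values between 0.00255 and 0.0346.

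*Igf1r* (chr7:67952827-68233668, plus strand), the receptor tyrosine kinase for IGF1 and IGF2, was expressed at a low level. It was 2.22, 2.2 and 2.51 FPKM in WT replicates 1 to 3 and 1.40, 1.90 and 1.92 FPKM in TG replicates 1 to 3. The TG mice again lay below the WT mice without overlap, but the gap between the nearest mice was small. The difference did not pass the threshold, with a log2 fold change of -0.28 (SE 0.12, 95% interval -0.56 to 0.01; limma adjusted p = 0.146).

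**Figure D1:**
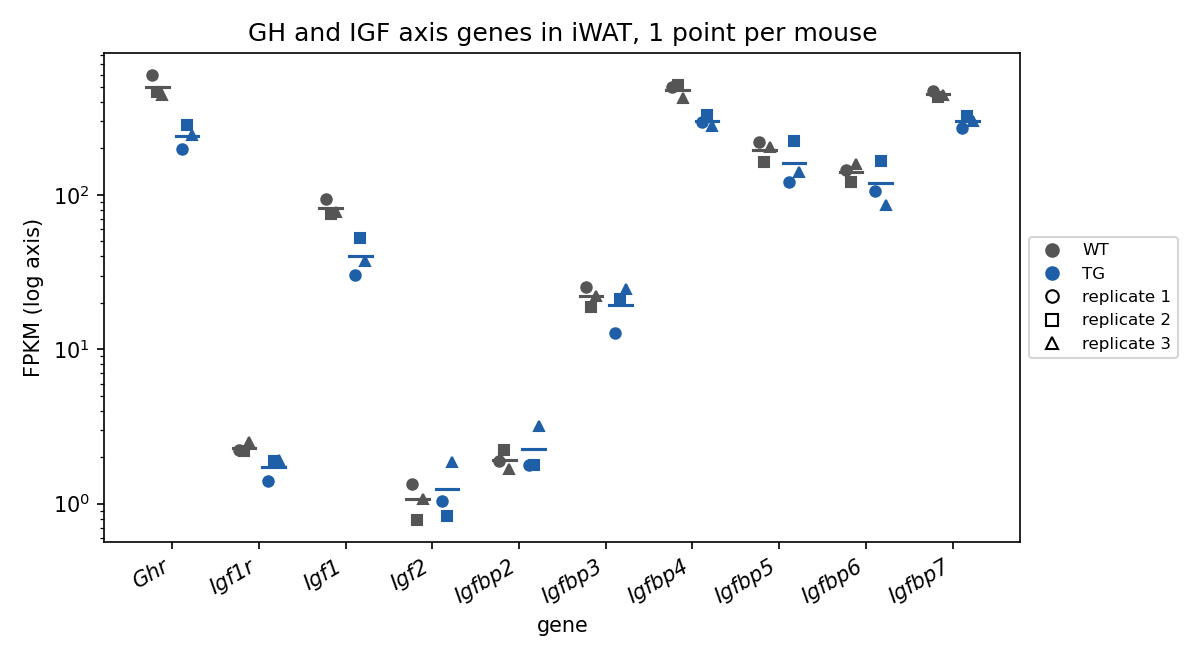
FPKM (log axis) of the 10 genes in each of the 6 mice, with WT in grey and TG in blue, 1 point per mouse, the marker shape giving the replicate number and the bar the group mean. The TG mice lie below the WT mice without overlap for *Ghr*, *Igf1r*, *Igf1*, *Igfbp4* and *Igfbp7*, and the groups overlap for the other genes.

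*Igf1* (chr10:87858265-87937042, plus strand, ENSMUSG00000020053.18), the ligand whose transcription GH drives in many tissues, was lower in TG by about the same proportion as *Ghr*. A link between these falls was not tested. It was 94.5, 75.1 and 77.3 FPKM in WT replicates 1 to 3 and 30.2, 52.2 and 37.6 FPKM in TG replicates 1 to 3. The groups did not overlap, with TG replicate 2 nearest to WT. The means were 40.0 ± 11.2 FPKM in TG and 82.3 ± 10.6 FPKM in WT (SD, n = 3 each), 51.4% lower in TG. The log2 fold change was -1.05 (SE 0.20, 95% interval -1.52 to -0.59; limma adjusted p = 0.0132). The annotation places the antisense gene *Igf1os* over the 5′ part of *Igf1*, and the TruSeq v2 kit does not mark strand, so reads of the pair cannot be told apart there.

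*Igf2* (chr7:142650766-142666816, minus strand), the imprinted ligand of fetal growth, was near the lower limit of expression. It was 1.35, 0.786 and 1.07 FPKM in WT replicates 1 to 3 and 1.04, 0.837 and 1.85 FPKM in TG replicates 1 to 3. The groups overlapped, and TG replicate 3 alone was above all WT mice. The log2 fold change was 0.10 (95% interval -0.37 to 0.57; limma adjusted p = 0.744). The locus also holds the antisense gene *Igf2os* and the microRNA gene *Mir483*, and their own rows were at most 0.0230 FPKM and 0 FPKM in all 6 mice. On the same strand the annotation also places the protein-coding gene *Gm49394* (chr7:142650769-142669942), and its part in the *Igf2* value was not tested.

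Among the binding proteins, *Igfbp4* and *Igfbp7* were the most abundant in both genotypes and fell in TG. *Igfbp4* (chr11:99041244-99054392, plus strand, ENSMUSG00000017493.12) encodes a binding protein known mainly for restraining IGF action until a protease cleaves it. It was 499, 518 and 422 FPKM in WT replicates 1 to 3 and 298, 330 and 279 FPKM in TG replicates 1 to 3. All TG mice were below all WT mice, and the spread within TG was narrow. The means were 303 ± 26.1 FPKM in TG and 480.0 ± 50.8 FPKM in WT (SD, n = 3 each), 37.0% lower in TG. The log2 fold change was -0.66 (SE 0.12, 95% interval -0.95 to -0.37; limma adjusted p = 0.0131).

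*Igfbp7* (chr5:77349240-77408041, minus strand, ENSMUSG00000036256.13) encodes a secreted protein with low affinity for IGFs that is found in vessel walls and extracellular matrix. It was 474, 430 and 446 FPKM in WT replicates 1 to 3 and 271, 325 and 303 FPKM in TG replicates 1 to 3. The groups were clearly apart, with more than the whole WT range between the highest TG and the lowest WT mouse. The means were 299.9 ± 27.1 FPKM in TG and 449.9 ± 22.1 FPKM in WT (SD, n = 3 each), 33.3% lower in TG. The log2 fold change was -0.59 (SE 0.11, 95% interval -0.84 to -0.33; limma adjusted p = 0.0128). The deposited locus spans the neighbouring genes *Polr2b* and *Noa1*, whose own rows did not pass the test, with log2 fold changes of 0.00 (limma adjusted p = 0.979) and 0.26 (limma adjusted p = 0.0762).

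*Igfbp5* and *Igfbp6*, binding proteins made by mesenchymal cells, the latter with a preference for IGF2, were intermediate in level. *Igfbp5* (chr1:72857932-72874884, minus strand) was 220, 162 and 206 FPKM in WT replicates 1 to 3 and 121, 223 and 142 FPKM in TG replicates 1 to 3. *Igfbp6* (chr15:102144362-102149511, plus strand) was 144, 121 and 158 FPKM in WT replicates 1 to 3 and 107, 165 and 86.2 FPKM in TG replicates 1 to 3. For both genes TG replicate 2 was above all WT mice while the other TG mice were below them, so the groups overlapped. The log2 fold changes were -0.32 for *Igfbp5* (95% interval -0.87 to 0.24; limma adjusted p = 0.366) and -0.28 for *Igfbp6* (95% interval -0.84 to 0.27; limma adjusted p = 0.416). Without TG replicate 2 they were -0.57 (limma adjusted p = 0.0592) and -0.54 (limma adjusted p = 0.0617), still short of the threshold. TG replicate 2 also had the highest sum of 7 skeletal muscle markers, 650 FPKM, against 91.0 and 130 FPKM in TG replicates 1 and 3 and 7.20, 138 and 38.2 FPKM in WT replicates 1 to 3, and the part of this in the result was not tested.

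*Igfbp3* and *Igfbp2* showed no difference past the threshold. *Igfbp3* (chr11:7206086-7213923, minus strand), which encodes the main carrier of IGFs in blood, was 25.3, 18.9 and 22.3 FPKM in WT replicates 1 to 3 and 12.7, 21.0 and 24.6 FPKM in TG replicates 1 to 3. TG replicate 1 alone was below the WT range, and the log2 fold change was -0.22 (95% interval -0.77 to 0.33; limma adjusted p = 0.53). *Igfbp2* (chr1:72824503-72852474, plus strand), known as a product of preadipocytes and liver, was 1.88, 2.22 and 1.67 FPKM in WT replicates 1 to 3 and 1.78, 1.79 and 3.19 FPKM in TG replicates 1 to 3. TG replicate 3 was above all WT mice and the other TG mice were within their range, with a log2 fold change of 0.13 (95% interval -0.31 to 0.56; limma adjusted p = 0.645). The interval of *Igfbp3* includes a fall of the size seen in *Igfbp7*, and that of *Igfbp2* does not.

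**Figure D2:**
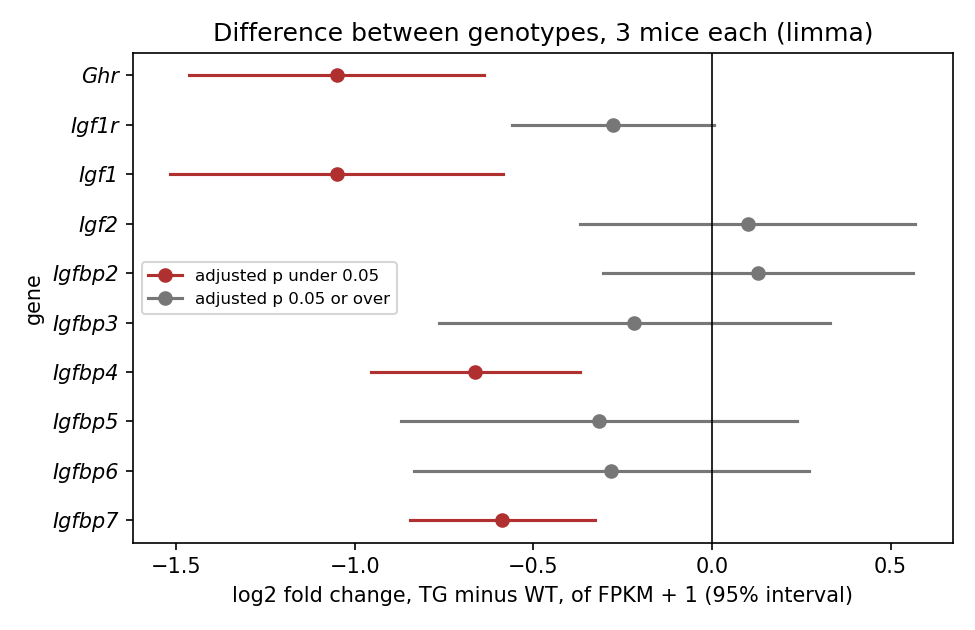
Log2 fold change of FPKM + 1 (x axis, TG minus WT, 3 mice each) for the 10 genes (y axis), with points for the limma estimate and bars for its 95% interval, in red where the adjusted p was under 0.05. *Ghr* and *Igf1* lie at -1.05, *Igfbp4* at -0.66 and *Igfbp7* at -0.59, while the intervals of the other 6 genes include 0.

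In 5 of the 10 genes, the 4 called and *Igf1r*, every TG mouse was below every WT mouse, and in 0 was every TG mouse above. Over all loci tested, 20.1% were lower in TG without overlap, 22.8% higher and 42.9% in either direction. The calls of *Igf1*, *Igfbp4* and *Igfbp7* were lost without TG replicate 3, which left *Ghr* alone (1 of 10 genes), with limma adjusted p-values of 0.0507, 0.0562 and 0.0501 for the other 3 and log2 fold changes of -1.02, -0.60 and -0.60. Over all loci, the lower calls went from 822 to 329 without that mouse, and to between 400 and 906 without any other. *Igfbp4* was also lost without WT replicate 2 (limma adjusted p = 0.0502). Under quantile normalization the log2 fold changes of the 4 called genes grew, to -1.39 for *Ghr*, -1.14 for *Igf1*, -1.0 for *Igfbp4* and -0.92 for *Igfbp7*. Over all loci, that setting took the lower calls from 822 to 1083 and the higher calls from 1352 to 1300.

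**Figure D3:**
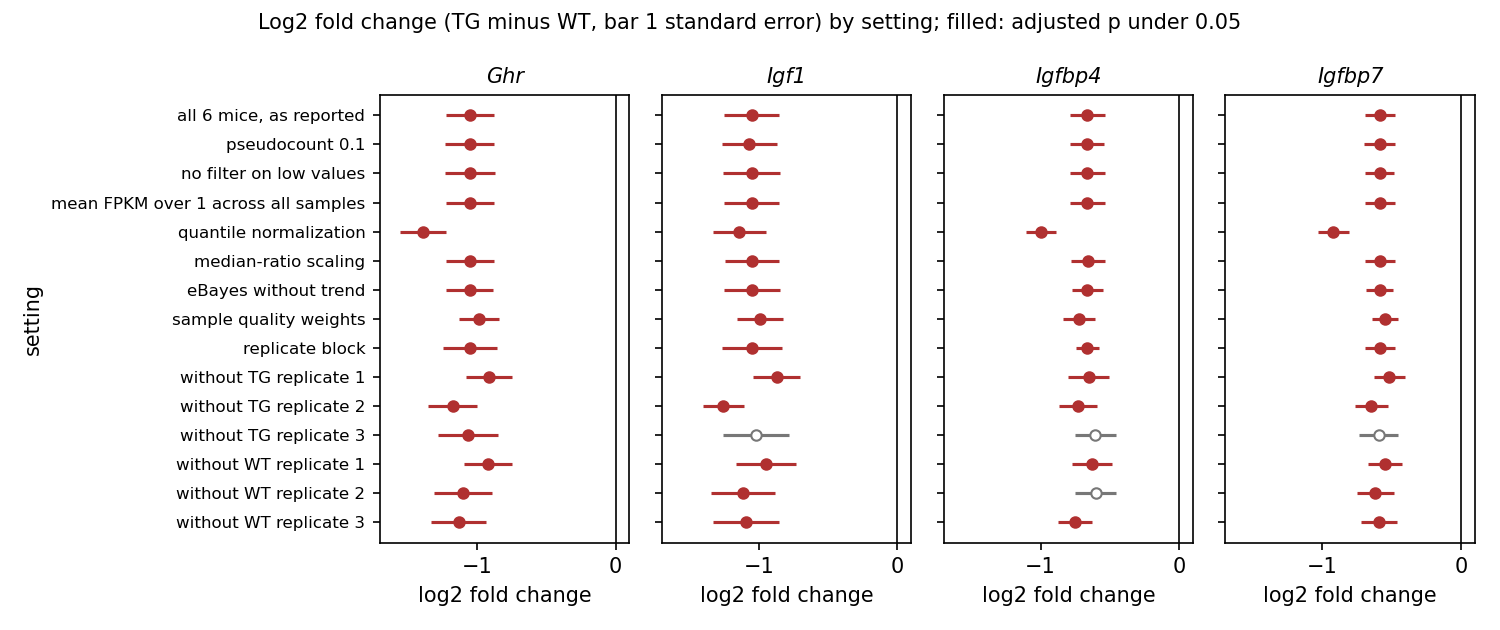
Log2 fold change (x axis, TG minus WT, bar 1 standard error) of the 4 called genes, 1 panel each, in the fit as reported and in each alternative setting (y axis), with filled points where the limma adjusted p was under 0.05. All points are below 0, and the open points are *Igf1*, *Igfbp4* and *Igfbp7* without TG replicate 3 and *Igfbp4* without WT replicate 2.

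The order of the 10 genes by mean FPKM differed between the genotypes in the place of *Ghr* and in that of *Igf1r* and *Igfbp2*. In WT it was *Ghr*, *Igfbp4*, *Igfbp7*, *Igfbp5*, *Igfbp6*, *Igf1*, *Igfbp3*, *Igf1r*, *Igfbp2* and *Igf2*, from 501 to 1.07 FPKM. The ranges over the WT mice of *Ghr* and *Igfbp4*, of *Igfbp4* and *Igfbp7*, and of *Igf1r* and *Igfbp2* overlapped, and the other neighbours were apart. In TG the order was *Igfbp4*, *Igfbp7*, *Ghr*, *Igfbp5*, *Igfbp6*, *Igf1*, *Igfbp3*, *Igfbp2*, *Igf1r* and *Igf2*, from 303 to 1.24 FPKM. The ranges of neighbours among the 5 highest genes overlapped over the TG mice, as did those of *Igfbp2* and *Igf1r* and of *Igf1r* and *Igf2*. Within each of the 3 TG mice, however, *Ghr* was below both *Igfbp4* and *Igfbp7* and above *Igfbp5*, and *Igfbp5* was above *Igfbp6*, while *Igfbp4* was above *Igfbp7* in 2 of 3. In WT, *Ghr* was above *Igfbp4* in 2 of 3 mice. The order of *Igf1r* and *Igfbp2* did not hold in every mouse either. *Igfbp2* was above *Igf1r* in 2 of 3 TG mice, and *Igf1r* above *Igfbp2* in 2 of 3 WT mice.

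Ratios within a mouse describe how the genes stood to each other, and no test was made of them. The ratio of *Igf1* to *Ghr* in FPKM was 0.159, 0.162 and 0.174 in WT replicates 1 to 3 and 0.153, 0.184 and 0.154 in TG replicates 1 to 3, so the ranges of this ratio overlapped between the genotypes. The summed FPKM of the 6 binding protein genes was 1364, 1253 and 1255 in WT replicates 1 to 3 and 812, 1066 and 837 in TG replicates 1 to 3. This sum was lower in all TG mice than in all WT mice. Divided by *Igf1* FPKM it was 14.4, 16.7 and 16.2 in WT replicates 1 to 3 and 26.8, 20.4 and 22.3 in TG replicates 1 to 3, so that binding protein RNA per *Igf1* RNA was higher in each TG mouse. *Igfbp4* and *Igfbp7* together made up 71.3%, 75.7% and 69.2% of the sum in WT replicates 1 to 3 and 70.2%, 61.5% and 69.5% in TG replicates 1 to 3, with TG replicate 2 the lowest.

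**Figure D4:**
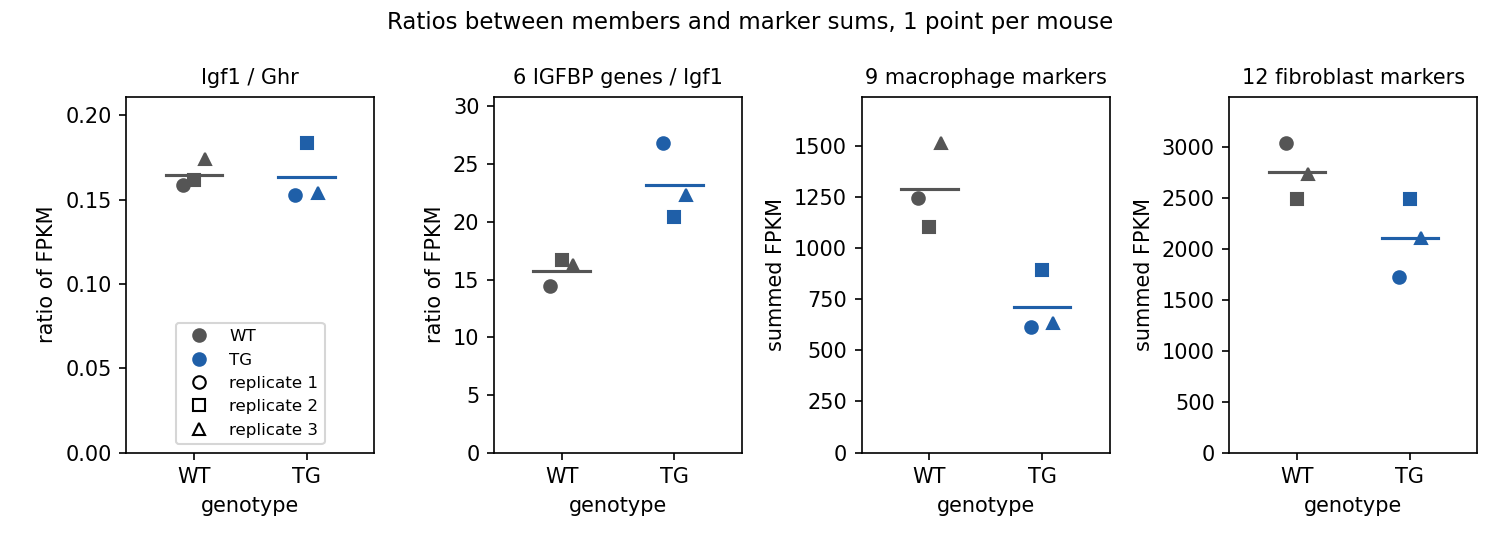
Ratio of *Igf1* to *Ghr* and of the 6 summed binding protein genes to *Igf1* (both ratios of FPKM), and the summed FPKM of 9 macrophage and of 12 fibroblast markers, by genotype (x axis), 1 point per mouse with the marker shape giving the replicate number and a bar for the mean. The first ratio overlaps between genotypes, and the second is higher in all TG mice (20.4 to 26.8 against 14.4 to 16.7). Both marker sums are lower in all TG mice, for the fibroblast markers by less than 1 FPKM between the nearest mice. Without *Dpt* the fibroblast sums of the genotypes overlap.

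Bulk tissue holds several cell types, and fewer cells of a type and less RNA per cell cannot be told apart in these values. The summed FPKM of 9 macrophage markers was between 612 and 894 in TG and between 1104 and 1514 in WT, and 5 of the 9 were called lower (*Adgre1*, *Cd68*, *Csf1r*, *Lyz2* and *Cd163*). That of 12 fibroblast and progenitor markers was between 1727 and 2494 in TG and between 2494 and 3040 in WT, and 1 of the 12 was called lower (*Dpt*). Without *Dpt* the fibroblast sum overlapped between genotypes, at 1543 to 2245 in TG and 1917 to 2582 in WT. The macrophage sum was lower in every TG mouse, as were *Ghr*, *Igf1*, *Igfbp4* and *Igfbp7*. The fibroblast sum was too, but without *Dpt* this separation of the genotypes was lost. The log2 fold change was negative for 9 of 9 macrophage, 11 of 12 fibroblast, 7 of 7 lymphocyte and 6 of 6 epithelial markers. It was also negative for 3 of 6 adipocyte, 4 of 8 endothelial, 4 of 7 mural and 1 of 7 brown adipocyte markers. The median over all loci tested was -0.01. The part of these cell types in the result was not tested. The endothelial sum (8 markers) was between 179 and 188 in TG and between 177 and 185 in WT, with 2 called higher and 1 lower. The 6 adipocyte markers tested summed to between 28199 and 33447 in TG and between 23904 and 29610 in WT, with 1 called lower, *Adipoq*. The ranges of this sum overlapped, but *Fabp4*, whose promoter drives the transgene, made up 79.5% to 87.8% of it. The other 5 adipocyte markers summed to between 3638 and 4152 FPKM in TG and between 4607 and 6070 FPKM in WT, lower in every TG mouse, and without *Adipoq* as well the remaining 4 overlapped (2359 to 2729 in TG and 2523 to 3159 in WT). These shorter sums were chosen after the values were seen, and the part of adipocyte markers in the result was not tested. The 7 brown adipocyte markers summed to between 3150 and 4418 in TG and between 215 and 341 in WT, with 6 called higher. Lymphocyte markers (7 tested) summed to between 204 and 303 in TG and between 292 and 420 in WT, with 1 called lower. Mural (195 to 289 FPKM in TG and 220 to 297 in WT), epithelial (120 to 240 and 207 to 274) and skeletal muscle markers had 0 called by limma. At an unadjusted p under 0.05 the counts were 1 mural and 2 muscle markers higher and 1 epithelial marker lower, again with no share over all loci at that threshold. All 7 muscle markers had a positive log2 fold change, with a median of 2.19, TG replicate 2 being the highest and the genotypes overlapping for each. No marker in these lists was at 0 in all mice.

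The genes around the 10 were read from 5 lists of 66 genes in all, of which 64 were in the table and 52 were tested. In total 11 were called lower (21.2%) and 7 higher (13.5%), against 7.03% lower and 11.6% higher over all loci tested, so the share of higher genes was near that background. The median log2 fold change was -0.14, against -0.01 over all loci tested. Leaving out 1 mouse gave 7 to 11 lower and 3 to 5 higher genes. The lower count came to 7 without TG replicate 3 and 7 without WT replicate 1, and the higher count to 4 without either of these and to 3 without WT replicate 2 or 3. The genes called in all 14 alternative settings were *Prlr*, *Grb14*, *Pik3r1*, *Htra1*, *Mmp3*, *Pcsk6*, *Cyr61* and *Plagl1*, and the others were lost in 2 to 7 settings. With no filter on low values the counts were 7 lower and 4 higher.

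Of the GH signalling genes, 18 of 21 were tested, 1 was lower and 1 higher. *Prlr*, the prolactin receptor, a cytokine receptor of the same family as *Ghr*, was 13.4, 12.97 and 15.8 FPKM in WT replicates 1 to 3 and 6.47, 8.86 and 8.14 FPKM in TG replicates 1 to 3. It was lower in all TG mice, with a log2 fold change of -0.78 (limma adjusted p = 0.00843). *Sh2b1*, an adaptor that binds JAK2, was 27.0 ± 0.577 FPKM in WT and 34.0 ± 2.33 FPKM in TG, with a log2 fold change of 0.32 (limma adjusted p = 0.0313). The kinase gene *Jak2* and the transcription factor genes *Stat5a* and *Stat5b* did not pass the threshold, with log2 fold changes of -0.13, -0.26 and 0.00 and limma adjusted p-values of 0.399, 0.12 and 0.98. The feedback inhibitors *Socs2* and *Cish*, both known as STAT5 targets, also did not, at -0.62 and 0.47, and they varied widely between mice. *Socs2* was 10.97, 5.6 and 5.32 FPKM in WT replicates 1 to 3 and 2.38, 6.10 and 4.68 FPKM in TG replicates 1 to 3. *Cish* was 21.4, 4.45 and 5.98 FPKM in WT replicates 1 to 3 and 9.73, 30.3 and 5.78 FPKM in TG replicates 1 to 3. For neither gene were the genotypes separate, and in each a single mouse gave the highest value of its group. *Gh* itself was at most 0.596 FPKM, and *Ghrhr* was listed at 0 in all 6 mice.

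Of the further receptors and the adaptors that couple IGF and insulin receptors to PI3-kinase, 14 of 16 were tested, 4 were lower and 1 higher. *Irs1* and *Irs2*, the main docking proteins of both receptors, fell by 0.86 and 0.93 on the log2 scale (limma adjusted p = 0.0275 and 0.0176). *Irs1* was 17.2 ± 2.55 FPKM in WT and 9.20 ± 2.66 FPKM in TG, and *Irs2* 9.63 ± 1.58 and 4.66 ± 1.24 FPKM. *Pik3r1*, the regulatory subunit of PI3-kinase, was 49.4 ± 2.18 FPKM in WT and 31.1 ± 3.49 FPKM in TG, with a log2 fold change of -0.66 (limma adjusted p = 0.00577). The related adaptors *Grb10* and *Grb14*, which both inhibit insulin and IGF receptors, went in opposite directions. *Grb10* was 17.6 ± 1.86 FPKM in WT and 11.1 ± 2.18 FPKM in TG, with a log2 fold change of -0.63 (limma adjusted p = 0.0273). *Grb14* was 6.45, 19.4 and 9.09 FPKM in WT replicates 1 to 3 and 76.1, 39.7 and 65.6 FPKM in TG replicates 1 to 3, higher in every TG mouse, with a log2 fold change of 2.36 (95% interval 1.44 to 3.29; limma adjusted p = 0.00869). *Insr* and *Igf2r*, the insulin receptor and the receptor that clears IGF2, did not pass the threshold, at -0.08 (limma adjusted p = 0.598) and 0.28 (limma adjusted p = 0.0925).

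Of the other carriers, the proteases that can cut binding proteins or process IGFs and the stanniocalcins that inhibit such proteases, 11 of 15 were tested, 3 were lower and 0 higher by limma. At an unadjusted p under 0.05, 5 were lower and 1 higher, with no share over all loci taken at that threshold. *Mmp3*, a matrix metalloproteinase, was 40.6, 37.1 and 36.2 FPKM in WT replicates 1 to 3 and 16.2, 16.6 and 18.6 FPKM in TG replicates 1 to 3. The mice of each genotype lay close together and the log2 fold change was -1.10 (SE 0.09; limma adjusted p = 0.000696). *Htra1*, a secreted serine protease, was 154 ± 19.3 FPKM in WT and 79.9 ± 13.4 FPKM in TG, with a log2 fold change of -0.95 (limma adjusted p = 0.00635). *Pcsk6*, a proprotein convertase, was 33.9 ± 4.64 FPKM in WT and 21.1 ± 1.52 FPKM in TG, with a log2 fold change of -0.65 (limma adjusted p = 0.0106). *Pappa*, the metalloproteinase best known for cutting the *Igfbp4* product, was at most 0.194 FPKM in any mouse and was not tested, nor were *Pappa2*, *Igfbpl1* and *Igfbp1*, the last listed at 0 in all mice. *Igfals*, the acid-labile subunit of the circulating IGF complex, was 23.2 ± 12.8 FPKM in WT and 17.3 ± 2.68 FPKM in TG (limma adjusted p = 0.719). The median of the list was -0.51.

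Proteins of the CCN family and others share a part with the IGF binding proteins, and 6 of 7 such genes were tested, with 2 lower and 3 higher. *Cyr61*, a matricellular growth regulator, was 4.43 ± 0.259 FPKM in WT and 10.3 ± 2.47 FPKM in TG, with a log2 fold change of 1.04 (limma adjusted p = 0.00548). *Ctgf*, its relative, went the other way, from 7.67 ± 2.80 FPKM in WT to 3.15 ± 0.545 FPKM in TG, with a log2 fold change of -1.02 (limma adjusted p = 0.029). *Wisp2* was also lower, at -0.72 (limma adjusted p = 0.0387), while the endothelial proteoglycan gene *Esm1* and *Kazald1* were higher, at 0.66 (limma adjusted p = 0.0151) and 0.55 (limma adjusted p = 0.0349). *Esm1* was near the filter, at 0.334 ± 0.103 FPKM in WT and 1.11 ± 0.0765 FPKM in TG.

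**Figure D5:**
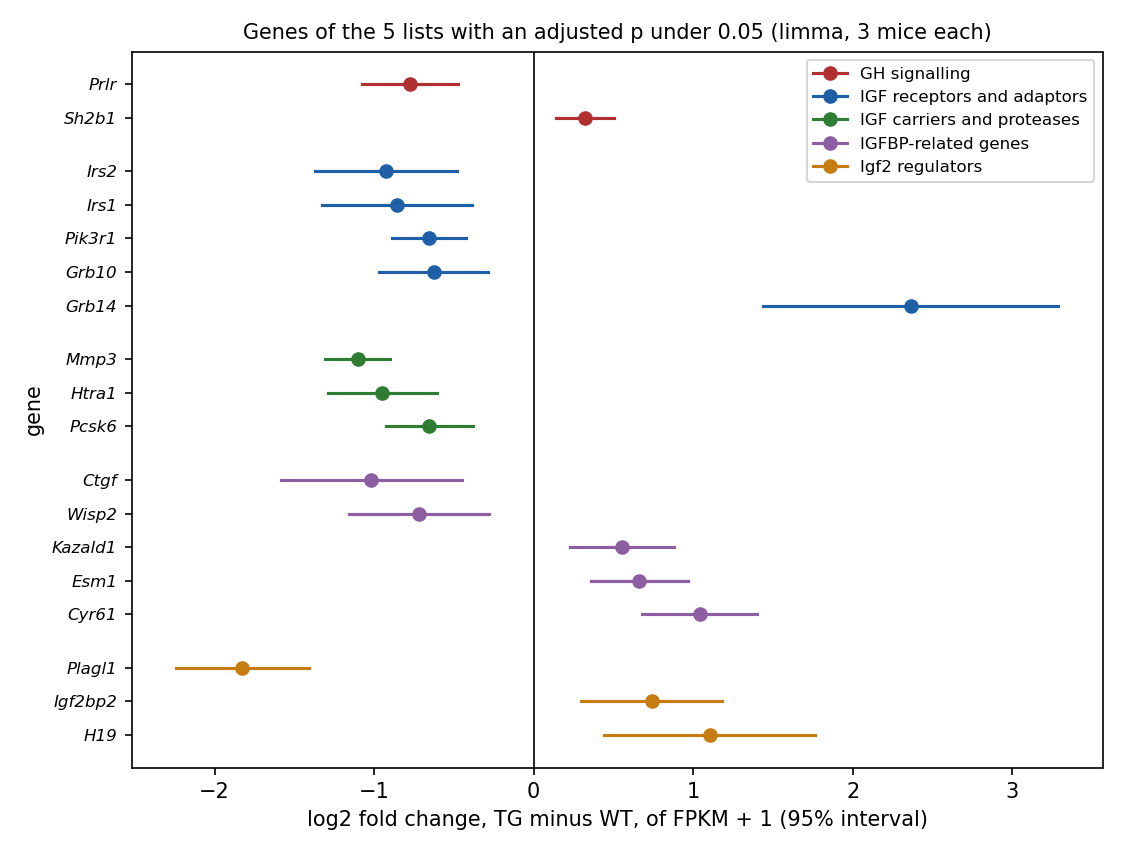
Log2 fold change of FPKM + 1 (x axis, TG minus WT, 3 mice each) with its 95% interval for the 18 genes of the 5 lists with a limma adjusted p under 0.05 (y axis), coloured by list. *Plagl1* at -1.83 and *Grb14* at 2.36 lie farthest from 0, and every list holds genes on both sides of 0 except the carriers and proteases.

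Of 7 genes tied to the regulation of *Igf2*, 3 were tested and all 3 were called, although *Igf2* itself was not. *Plagl1*, an imprinted zinc finger gene whose product acts on the *Igf2* and *H19* region, was 14.9, 22.1 and 15.0 FPKM in WT replicates 1 to 3 and 4.95, 3.44 and 4.01 FPKM in TG replicates 1 to 3. It was far lower in every TG mouse, with a log2 fold change of -1.83 (limma adjusted p = 0.00123). *H19*, the imprinted noncoding RNA next to *Igf2*, was 13.6, 6.24 and 8.86 FPKM in WT replicates 1 to 3 and 16.4, 27.7 and 19.7 FPKM in TG replicates 1 to 3. It was higher in every TG mouse, with a log2 fold change of 1.10 (limma adjusted p = 0.0363). *Igf2bp2*, which encodes a protein that binds *Igf2* and other mRNAs, was 3.16 ± 0.448 FPKM in WT and 6.07 ± 1.87 FPKM in TG, with a log2 fold change of 0.74 (limma adjusted p = 0.0364). The calls of *H19* and *Igf2bp2* were each lost in 6 of 14 settings.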

How the data were processed

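RNA-Seq of iWAT from 3 TG and 3 WT mice was analysed. The authors made TruSeq v2 libraries, mapped single-end reads to mm10 and deposited FPKM per gene locus and mouse; the submitters' processing notes name CASAVA 1.8.2, TopHat2 2.0.9, Bowtie2 2.1.0 and Cufflinks 2.2.1. The annotation and options are not given in the sources used here. FPKM are scaled by mapped reads, so no counting interval can be given, and no count test was made.

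The 11692 of 19445 loci whose mean in TG or in WT exceeded 1 FPKM were tested as log2(FPKM + 1) with limma 3.58.1 in R 4.3.3 (lmFit, eBayes with trend, two-sided, no covariates), with Benjamini-Hochberg adjustment over all of them; the procedure was tested on simulated data. The authors' Cuffdiff comparison was not rerun. Single genes also had an exact permutation test. Replicates are separate mice by their labels.

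The members and lists were chosen with earlier results of these data known. Named were the 10 members and every gene of the 5 lists with an adjusted p under 0.05, and genes named otherwise were chosen after their values were seen. *Shc1* and *Igf2bp1*, on rows of several symbols, were not counted, and *Igf2os* and *Adgre1* were found under older symbols. Alternatives were another pseudocount (0.1), other filters, sample quality weights, quantile or median-ratio scaling, no eBayes trend, a replicate block, each mouse left out and an adjusted p under 0.01. Sequences are from RefSeq (GRCm38.p6) and gene positions from GENCODE on GRCm38. Figures were drawn with matplotlib 3.10.9.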

Additional observations from a re-analysis of the deposited data

How the results depend on the processing

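*Ghr* was called lower in all 15 alternatives, and no member was called higher in any. At an adjusted p under 0.01 the count of lower members was 1 instead of 4, and with 1 mouse left out it ranged from 1 to 4, the lowest without TG replicate 3; such fits have fewer samples. The listed pathway genes counted 7 lower and 4 higher with no filter on low values, where more loci are tested (15860), and 7 to 11 lower and 3 to 5 higher with 1 mouse left out. Quantile normalization gave 14 lower and 6 higher, and sample quality weights 13 lower and 7 higher. The count of members at the smallest permutation p was 5 in all 4 settings run. The settings among these that only change the filter leave the members' values as they are, so the count could not move there. The direction of 3 genes that were not called reversed: *Igfbp3* was at 0.0137 with sample quality weights and ranged from -0.4038 to 0.0465 with 1 mouse left out, *Igf2* ranged from -0.0867 to 0.2309 and *Igfbp2* from -0.0674 to 0.2285; the cause was not tested. Of 401 alternative values of single genes, 335 kept direction and call, 61 kept direction and lost the call, and 5 reversed. The other filters, the fit without trend, the replicate block and the stricter threshold leave the log2 fold change as it is, so direction could not reverse there.

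The replicate numbers mark different animals, and same-numbered mice did not deviate together (correlations 0.0129, 0.0344 and 0.0701). With the number as a replicate block all 4 lower members were still called (limma adjusted p = 0.0146 to 0.041), while the listed pathway genes counted 8 lower and 3 higher. Summing all loci of a symbol was not run, as no member is on several loci. As the absolute depth is unknown, no counting precision can be given for the genes near 1 FPKM, *Igf1r*, *Igf2* and *Igfbp2*.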
